A study of Mus musculus with 8 samples.

Results

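A set of 6 genes of the IL-20 cytokine subfamily was followed in mouse epidermis: the ligand genes Il19, Il20 and Il24 and the receptor subunit genes Il20ra, Il20rb and Il22ra1. They were taken by symbol, with earlier results of these data known, and all 6 stood in both deposited tables among the 16902 genes listed. IL-19, IL-20 and IL-24 are secreted relatives of IL-10 that signal to epithelial cells. A receptor of the subunits IL-20RA and IL-20RB binds all of these ligands, a second receptor of IL-22RA1 and IL-20RB binds IL-20 and IL-24, and IL-22RA1 with IL-10RB forms the receptor of IL-22. In human skin the receptors sit on keratinocytes, act mainly through JAK kinases and STAT3, and the ligands are known for their abundance in psoriatic plaques.

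Epidermis was freed with dispase from the back skin of CD1 mice, and its polyadenylated RNA was sequenced. The mice differed in their genotype at Ovol1, whose zinc-finger protein represses transcription in epithelia, and in whether imiquimod (IMQ) had been given. IMQ activates Toll-like receptors and is used to model psoriasis in mouse skin. The 8 libraries formed 4 groups of 2, each with 1 female and 1 male, named in that order wherever a pair of values is given: untreated mice labelled Ovol1 -/-, untreated Ovol1 +/- controls, IMQ-treated mice labelled Ovol1 -/- and IMQ-treated Ovol1 +/+ controls. The untreated controls thus carried a mutant allele that the IMQ controls lacked. The sources used here give neither age, the design of the Ovol1 allele, nor the dose and duration of IMQ. The labels do not say that the 2 libraries of a group came from separate experiments. Each p-value thus rests on the spread among these libraries alone. That spread joins any technical part and any variation between animals to the difference between a female and a male. Putting sex in the fit removes only a difference between the sexes that the groups share.

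The libraries held 28600596 to 43080052 reads. Reads of Ovol1 itself were found in all 8, with more of them in the -/- libraries, at normalised counts of 27433 and 26601 against 16629 and 14582 in the controls without treatment, and at 13457 and 13077 against 7635 and 9556 under IMQ. The tables hold no exon values, so this is no check of the labels, and the -/- mice are called labelled knockouts throughout. The keratinocyte genes Krt5 and Krt14 were at 132064 to 258042 normalised counts in all 8 libraries. Markers of other cells were present too, and none of those listed was at 0 in both libraries of a group. Under IMQ the summed level of 6 dermal fibroblast markers was 1901 and 49985 in the labelled knockouts, against 6949 and 78987 in the controls. These sums overlapped between genotypes, with the males far above the females. By the fitted values 6 of 6 were lower in the labelled knockouts, with a median log2 fold change of -1.26. The 3 neutrophil markers tested summed to 3591 and 1368 in the labelled knockouts, against 611 and 1193 in the controls, with 2 of 3 higher. The 6 macrophage and monocyte markers summed to 4208 and 5149 in the labelled knockouts, against 8262 and 5019 in the controls, with 5 of 6 lower. For 4 endothelial markers the sums were 72.6 and 87.5 in the labelled knockouts, against 471 and 73.1 in the controls. All 5 basal keratinocyte markers were lower in the labelled knockouts under IMQ, with a median of -0.28. So were 5 of 6 suprabasal keratinocyte markers, with a median of -0.28 as well. The part of these shifts in the values of the IL-20 genes was not tested.

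In epidermis under IMQ, the ligand and receptor genes of the subfamily lay on opposite sides. All 3 ligand genes were higher in both labelled knockouts than in both controls, and all 3 receptor genes were lower in both. Such a clean separation was common, since 26.6% of the 14614 genes tested were higher without overlap and 26.4% lower. By the limma test across all genes, with Benjamini-Hochberg adjustment and a threshold of 0.05, 1 of the 6 passed, Il20ra, which fell in the labelled knockouts, where 0.438% of all genes tested were called in either direction. On the same reads or values, edgeR called 0.294% of all genes, DESeq2 8.5%, limma with sex as a block 2.45% and edgeR with that block 2%. The median log2 fold change was 3.39 over the ligands and -1.13 over the receptors, against -0.01 over all genes tested. In such bulk tissue, fewer cells of a type and less RNA per cell cannot be told apart.

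**Figure D1:**
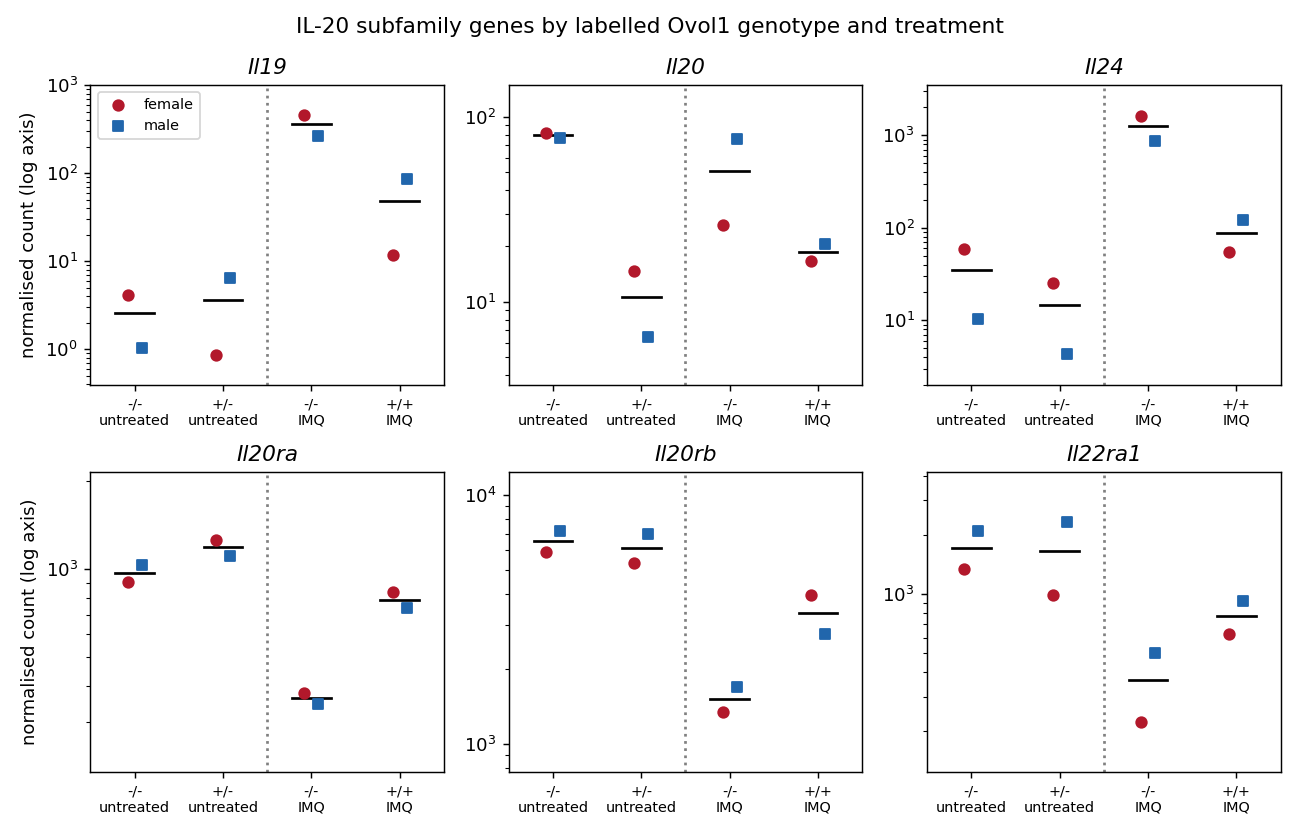
Normalised counts (log axis) of the 6 genes in each library, by labelled Ovol1 genotype and treatment. Circles are females, squares males and bars the group mean; the dotted line separates tables that were scaled separately, so levels compare only on the same side of it. Under IMQ, Il24 was at 1626 and 865 in the -/- libraries against 54.1 and 121 in the +/+ libraries, while Il20rb was at 1342 and 1690 against 3964 and 2749.

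Il24, whose product acts through both receptors that contain IL-20RB, had the largest fitted fold change of the 6 under IMQ. Under IMQ its normalised count was 1626 in the female and 865 in the male labelled knockout, against 54.1 in the female and 121 in the male control. Both labelled knockouts lay above both controls, and the lower of them exceeded the higher control. The group means were 1246 ± 538 in labelled knockouts and 87.6 ± 47.3 in controls (SD, n = 2 each). On the scale of log2 of the normalised count plus 1, used for all fold changes here, the difference was 3.86 (SE 0.96), about 14.5-fold. It missed the threshold, with a limma adjusted p of 0.102, as it did with sex taken as a block (0.0590) and in edgeR on recovered reads (0.0831). DESeq2 called it at 0.0141. Over 22 alternative settings the adjusted p ran from 0.0141 to 0.418.

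Il19 encodes a ligand that in human is bound by the IL-20RA and IL-20RB receptor and not by the IL-22RA1 one. Its normalised count under IMQ was 460 and 266 in the labelled knockouts, against 11.9 and 85.6 in the controls. The groups did not overlap, and the female control, with 13 reads, was the lowest of the 4 libraries. The means were 363 ± 137 in labelled knockouts and 48.8 ± 52.1 in controls (SD, n = 2 each). On the log2 scale the difference was 3.39 (SE 1.03, limma adjusted p = 0.132) and came from 5.16 between females and 1.63 between males. DESeq2 called Il19 at an adjusted p of 0.00680. Over 22 alternatives the adjusted p ran from 0.00680 to 0.476. The log2 fold change was 2.02 without the female control and 4.76 without the male one.

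Il20, a ligand of both receptors, had the lowest mean level per length of the 6 genes in both groups under IMQ, though in the female control Il19 was lower still. Its normalised count was 25.8 and 76.1 in the labelled knockouts, against 16.5 and 20.6 in the controls. These values rest on 26 and 80 reads in the labelled knockouts and on 18 reads in each control. The female labelled knockout lay close to the controls, and the male stood clear of them. The log2 fold change was 1.23 (SE 0.58, limma adjusted p = 0.260). It was 0.47 without the male labelled knockout and 1.99 without the female one, and none of 21 alternatives called it, with adjusted p from 0.150 to 0.659.

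The 250 bases before the RefSeq start of Il19 are shown because this ligand gene was barely read without IMQ. The sequence is from build GRCm38.p6, minus strand, chr1:130940116-130940365. Capitals mark matches to TTCNNNGAA, the palindrome that STAT dimers bind.
Il19: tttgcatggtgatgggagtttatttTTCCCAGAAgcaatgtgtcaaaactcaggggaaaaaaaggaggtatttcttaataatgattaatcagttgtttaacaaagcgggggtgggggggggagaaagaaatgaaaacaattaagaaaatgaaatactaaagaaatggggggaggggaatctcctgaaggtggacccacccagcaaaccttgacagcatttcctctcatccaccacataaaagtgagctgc
The match began 225 bases before the start. Of 32851 RefSeq promoter windows of this length, 7.02% held TTCNNNGAA on either strand. The window of Il20 held no match to it, to the AP-1 motif TGANTCA or to CNGTTA, the core bound by the Drosophila relative Ovo and by OVOL proteins. Part of the Il20 window lies inside the gene as GENCODE places it.

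All receptor genes had a negative fitted fold change under IMQ. Il20ra, the private subunit of the receptor shared by all the ligands, fell to a normalised count of 377 and 346 in the labelled knockouts under IMQ, against 839 and 734 in the controls. The labelled knockouts were alike, and so were the controls, with no overlap between groups. The means were 361 ± 21.6 in labelled knockouts and 786 ± 73.9 in controls (SD, n = 2 each). Its log2 fold change of -1.12 (SE 0.15) corresponds to a 2.17-fold lower level (limma adjusted p = 0.041, 0.0208 with sex as a block). edgeR gave an adjusted p of 0.0434 and DESeq2 2.12e-06. The call did not stand in a fit of the IMQ table alone (0.149), in the same with sex as a block (0.0847) or with plain moderation (0.122), and over 22 alternatives the adjusted p ran from 2.12e-06 to 0.149. It stood without the male labelled knockout under IMQ (0.0486). It was lost without the female labelled knockout (0.138), the female control (0.127) or the male control (0.0585) under IMQ, and without the female (0.0976) or male (0.0938) untreated labelled knockout or the female (0.0709) or male (0.0698) untreated control, which enter only through the spread.

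Il20rb, the subunit common to both receptors, had a normalised count of 1342 and 1690 in the labelled knockouts under IMQ, against 3964 and 2749 in the controls. Both labelled knockouts lay below both controls. The means were 1516 ± 246 in labelled knockouts and 3357 ± 859 in controls (SD, n = 2 each). The log2 fold change was -1.13 (SE 0.22), with a limma adjusted p of 0.0714, 0.0532 with sex as a block and 0.000539 in DESeq2. Over 22 alternatives the adjusted p ran from 0.000539 to 0.347.

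Il22ra1, the subunit shared with the IL-22 receptor, had a normalised count of 224 and 503 in the labelled knockouts under IMQ, against 628 and 920 in the controls. Females were lower than males in both genotypes, and the male labelled knockout lay below the female control. The log2 fold change was -1.18 (SE 0.50, limma adjusted p = 0.226). It was -0.59 without the female labelled knockout and -1.76 without the male one. With sex as a block its SE was 0.20 and it was called lower (adjusted p = 0.0401) and edgeR with the block called it as well (0.0487). Without the block edgeR gave 0.259 and DESeq2 0.131, and over 22 alternatives the adjusted p ran from 0.0401 to 0.689.

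**Figure D2:**
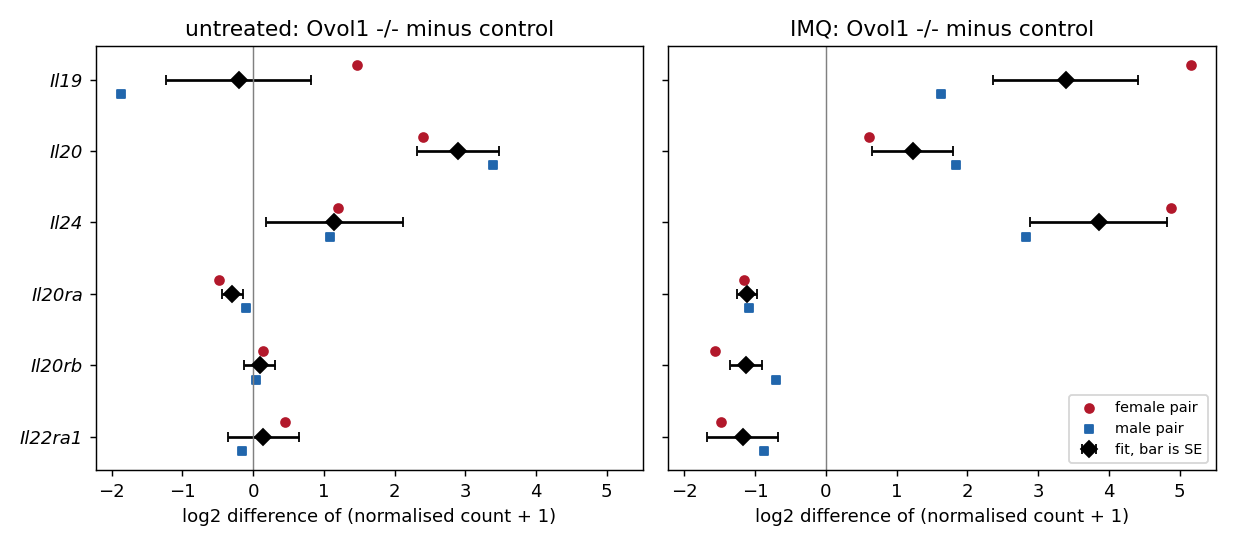
Log2 difference in normalised count plus 1 between labelled knockouts and controls for each gene, untreated and under IMQ. Diamonds are the fitted difference with its SE, circles the female pair and squares the male pair. Under IMQ the fitted values of the receptor genes lie between -1.18 and -1.12 and those of the ligand genes between 1.23 and 3.86, while the sex pairs run from -1.56 to -0.70 and from 0.62 to 5.16.

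The 250 bases before the RefSeq start of each receptor gene are shown because all of them were lower in the labelled knockouts under IMQ. The windows are from GRCm38.p6, at chr10:19712337-19712586 on the plus strand for Il20ra, chr9:100486474-100486723 on the minus strand for Il20rb and chr4:135727909-135728158 on the plus strand for Il22ra1. Capitals mark TGANTCA in Il20ra and Il22ra1 and CNGTTA in Il20rb.
Il20ra: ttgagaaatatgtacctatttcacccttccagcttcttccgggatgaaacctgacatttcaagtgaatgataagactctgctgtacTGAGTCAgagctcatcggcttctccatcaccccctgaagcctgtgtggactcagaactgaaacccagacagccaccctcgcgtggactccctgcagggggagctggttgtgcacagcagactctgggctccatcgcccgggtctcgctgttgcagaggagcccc
Il20rb: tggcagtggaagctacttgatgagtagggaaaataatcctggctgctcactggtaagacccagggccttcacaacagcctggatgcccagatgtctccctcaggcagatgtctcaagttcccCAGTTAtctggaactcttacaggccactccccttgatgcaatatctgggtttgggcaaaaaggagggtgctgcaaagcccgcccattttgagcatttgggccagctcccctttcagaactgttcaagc
Il22ra1: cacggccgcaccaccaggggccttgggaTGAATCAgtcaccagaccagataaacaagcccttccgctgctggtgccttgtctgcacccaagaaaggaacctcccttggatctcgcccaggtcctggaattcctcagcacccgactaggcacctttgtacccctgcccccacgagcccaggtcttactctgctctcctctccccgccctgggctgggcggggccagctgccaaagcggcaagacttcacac
TGANTCA reads the same on both strands, was found 164 bases before the start of Il20ra and 222 bases before that of Il22ra1, and was held by 6.75% of all windows. The CNGTTA match lay 128 bases before the RefSeq start of Il20rb, and 19.8% of all windows held such a match on either strand. GENCODE places the start of Il20rb further upstream, so by it the whole window, with the match, lies inside the gene. The last bases of the Il20ra window also lie inside its GENCODE gene. No motif was found in all 3 windows.

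In untreated epidermis, markers of other cells also differed between the genotypes. The 5 sebaceous markers summed to 87360 and 85327 in the labelled knockouts, against 41108 and 64141 in the controls, with 5 of 5 higher and a median log2 fold change of 0.84. By the fitted values, all 6 T cell markers tested were higher (median 0.22), all 6 dermal fibroblast markers lower (-0.49) and all 5 basal keratinocyte markers lower (-0.17). The fibroblast markers summed to 1868 and 18745 in the labelled knockouts, against 3999 and 17029 in the controls. Those sums overlapped between genotypes, with the males far above the females. None of the markers was called by limma, and their part in the values of the IL-20 genes was not tested. Il20 had a normalised count of 81.8 and 77.3 in the labelled knockouts, against 14.7 and 6.44 in the controls. The labelled knockouts were close to each other and above both controls, which held 17 and 6 reads, and 17.4% of all genes tested were likewise higher without overlap. The log2 fold change was 2.90 (SE 0.58, about 7.45-fold), with 2.40 between females and 3.39 between males. It missed the threshold, with a limma adjusted p of 0.358, 0.293 with sex as a block and 0.458 in edgeR. Limma called 0% of all genes, or 0 of 14614, edgeR 0 and DESeq2 89. In limma 652 genes had an unadjusted p under 0.05, where 731 are expected by chance. With the block limma called 0.0547% and edgeR 0.0411% of all genes, and neither called Il20. DESeq2 called Il20 at 0.0102, where 0.609% of all genes were called. Over 21 alternatives the adjusted p ran from 0.0102 to 1.

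The other ligands gave no such separation in untreated epidermis. Il24 was at a normalised count of 59.1 and 10.3 in the labelled knockouts, against 25.1 and 4.29 in the controls, so that females stood above males in both genotypes and the groups overlapped. Each labelled knockout exceeded the control of its sex, by 1.20 and 1.09 on the log2 scale, and the fitted value was 1.15 (SE 0.96, limma adjusted p = 1.00). Il19 was barely read, with 4 and 1 reads in the labelled knockouts, against 1 and 6 in the controls. Over both sexes that is 5 reads against 7, a ratio of 0.782 with a 95% exact conditional interval of 0.196 to 2.86 that covers counting error only. At so few reads, a difference within those bounds cannot be told from equality by counting alone. The interval leaves out the spread between libraries, with log2 differences of 1.46 between females and -1.87 between males. Whether the IMQ difference of about 10.5-fold exceeds the untreated one was tested only as the difference of contrasts below, where Il19 was not called.

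No receptor gene was called between genotypes when untreated, with fitted log2 fold changes from -0.29 to 0.14. Il20rb was at a normalised count of 5888 and 7133 in the labelled knockouts, against 5327 and 6945 in the controls, with a log2 fold change of 0.09 (SE 0.22). Il22ra1 was at 1343 and 2089 in the labelled knockouts, against 984 and 2334 in the controls, with a log2 fold change of 0.14 (SE 0.50). In both of these genes the groups overlapped. Il20ra was at 905 and 1038 in the labelled knockouts, against 1264 and 1113 in the controls, without overlap, which 16.4% of genes tested also showed on the lower side. Its log2 fold change was -0.29 (SE 0.15), and all 3 had a limma adjusted p of 1.00.

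Whether the genotype difference itself differed between the IMQ and the untreated tables was tested as a difference of these contrasts, in which the separate scaling of the tables cancels. It was -0.83 (SE 0.21) for Il20ra, -1.22 (SE 0.32) for Il20rb and -1.32 (SE 0.71) for Il22ra1. For the ligands it was 3.596 (SE 1.45) for Il19, 2.71 (SE 1.36) for Il24 and -1.67 (SE 0.82) for Il20. None passed, with limma adjusted p from 0.476 to 0.542, in a test that called 0 of 14614 genes. Of these, 1472 had an unadjusted limma p under 0.05, where 731 are expected by chance. By edgeR 0 genes were called and by DESeq2 99, or 0.677%. The controls were Ovol1 +/+ under IMQ and +/- without it, so treatment and control genotype cannot be told apart in this comparison.

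Levels with and without IMQ were set side by side as CPM, recovered reads divided by the library's scaled total, with scaling factors over all 8 libraries and no test, because the tables were scaled separately. The untreated controls were Ovol1 +/- and the IMQ controls +/+, so treatment and genotype cannot be told apart in the ratios of the controls. In the labelled knockouts Il24 was at 52.7 and 28.4 CPM under IMQ, against 1.56 and 0.271 CPM untreated. In the controls it was at 1.77 and 3.93 CPM under IMQ, against 0.671 and 0.116 CPM untreated. IMQ libraries were thus above untreated ones in labelled knockouts and in controls, and the log2 ratio of means with 0.5 CPM added was 4.86 in labelled knockouts and 1.91 in controls. For Il19 this ratio was 4.44 in the labelled knockouts, from 14.9 and 8.74 CPM under IMQ against 0.110 and 0.0271 CPM untreated. In the controls Il19 was at 0.391 and 2.78 CPM under IMQ, against 0.0231 and 0.173 CPM untreated, a log2 ratio of 1.80 that came to 0.57 without the male IMQ control. The added 0.5 CPM makes these ratios smaller than the ratios of the means, since untreated Il19 lay below it.

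Il20 was different, with 0.837 and 2.496 CPM under IMQ against 2.16 and 2.03 CPM untreated in the labelled knockouts, which overlapped, and a log2 ratio of -0.26 that turned to 0.21 without the female labelled knockout under IMQ. In the controls it was at 0.541 and 0.667 CPM under IMQ, against 0.393 and 0.173 CPM untreated, with a log2 ratio of 0.50. All 3 receptor genes were lower under IMQ in the labelled knockouts, with log2 ratios of -1.09 for Il20ra, -1.79 for Il20rb and -1.89 for Il22ra1 and no overlap. In the controls the ratios were -0.31, -0.59 and -0.81 in the same order. The Il22ra1 libraries of the controls overlapped, and its ratio was -0.06 without the male untreated control. Of all genes tested, 40.1% were lower without overlap in labelled knockouts and 32.3% in controls, while 39.9% were higher in labelled knockouts and 35.3% in controls. The median gene was at -0.01 in labelled knockouts and 0.02 in controls in CPM. With the deposited values it was at -0.32 in labelled knockouts and -0.25 in controls.

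Levels of different genes were compared per length, as RPKM, recovered reads divided by the length of the merged exons and by the library's total. In untreated epidermis the receptor genes were the most abundant of the 6, with Il20rb at 42.8 ± 6.22 RPKM in labelled knockouts and 39.8 ± 8.20 in controls (SD, n = 2 each). Il22ra1 and Il20ra followed, at 18.5 ± 5.85 and 11.1 ± 1.17 RPKM in the labelled knockouts and at 17.7 ± 10.5 and 13.3 ± 0.930 RPKM in the controls, and in the controls the libraries of these neighbours in the order overlapped. Each ligand gene averaged at most 1.85 RPKM in either untreated group. In the labelled knockouts under IMQ, Il24 led with 28.5 ± 13.0 RPKM, ahead of Il20rb at 11.3 ± 1.55 and Il19 at 10.01 ± 4.02, which overlapped each other. In the IMQ controls Il20rb remained first at 25.5 ± 7.80 RPKM, with Il20ra at 10.3 ± 1.497 and Il22ra1 at 9.51 ± 2.07, which overlapped, and Il24 was at 1.98 ± 0.981.

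Summed over the 3 ligand genes, the level was 51.2 and 28.5 RPKM in the labelled knockouts under IMQ, against 2.09 and 5.49 RPKM in the controls. Summed over the 3 receptor genes it was 18.01 and 22.9 RPKM in the labelled knockouts under IMQ, against 50.5 and 40.2 RPKM in the controls. The receptor sum exceeded the ligand sum in every library but the 2 labelled knockouts under IMQ, where the ratio of receptor to ligand was 0.352 and 0.804, against 24.2 and 7.33 in the controls. Without treatment that ratio was 19.9 and 40.0 in the labelled knockouts, against 69.5 and 214 in the controls. Of the ligand sum, Il24 gave 73.5% and 67.8% in the labelled knockouts under IMQ, against 61.6% and 48.7% in the controls, and so was the largest share in all 4 IMQ libraries. Without treatment Il20 was the largest share in the labelled knockouts, at 59.9% and 88.7%. The untreated controls, with sums of only 0.839 and 0.391 RPKM, had no common leader: Il24 gave 57.9% and Il20 39.7% in the female, and Il19 gave 39.7% and Il20 38.4% in the male. These sums weigh messages only and were not tested.

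**Figure D3:**
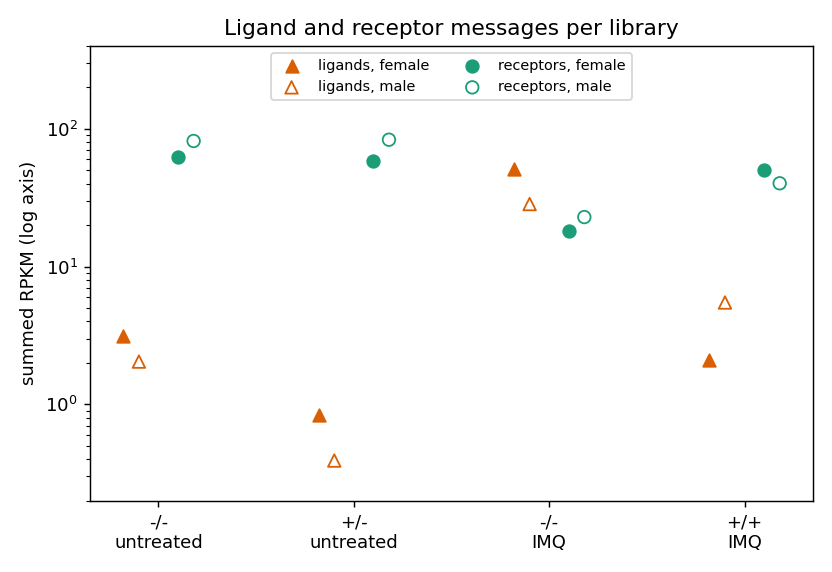
Summed RPKM (log axis) of the 3 ligand genes (triangles) and the 3 receptor genes (circles) in each library, filled for females and open for males. The ligand sum lies above the receptor sum only in the 2 labelled knockout libraries under IMQ, at 51.2 and 28.5 against 18.01 and 22.9.

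Likeness between genes was measured as Pearson's r of log2(CPM + 0.5) over the 8 libraries, which share the split by treatment. Each value within the subfamily is therefore followed by r after the mean of each treatment was subtracted. The genotype differences given above remain in that second r, so it is no separate evidence. Among the subfamily, Il24 was most like Il19 (0.96, then 0.90) and ran opposite to Il20rb (-0.99, then -0.96) and Il20ra (-0.95, then -0.92). Il20 was least like the other ligands, with 0.33 (then 0.46) to Il24 and 0.21 (then 0.29) to Il19. Of 13638 protein-coding genes, those closest to Il24 included Selenot, a selenoprotein of the endoplasmic reticulum (0.99), and the histone chaperone gene Nap1l1 (0.99). Closest to Il19 were the transcription factor subunit gene Nfyb, the small GTPase gene Arl8b and Mettl25 (all 0.99). Closest to Il20 were the microtubule-binding protein gene Map1b (0.97), Lypd2 (0.96) and the gamma-tubulin gene Tubg1 (0.94). For Il20rb they were the kinase gene Map3k3, Prr12 (both 1.00) and Fbxl20 (0.99), for Il20ra Ahcyl2 (0.99), Zfp383 (0.98) and the catenin family gene Arvcf (0.98), and for Il22ra1 the scaffold gene Dlg3 and the GTPase genes Rab13 and Gpn3 (all 0.99). These are the highest of many values over few libraries and describe the libraries only.

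Other genes of the pathway came from lists of related cytokines and class II cytokine receptors, of signalling genes, of cytokines known to induce the ligands and of keratinocyte response genes. Of 7 tested genes of the first list, limma called 0 in either comparison, and the median log2 fold change was 0.02 under IMQ and 0.09 untreated. Il10rb, the partner of IL-22RA1 in the IL-22 receptor, was at a normalised count of 439 and 618 in the labelled knockouts under IMQ, against 349 and 378 in the controls (log2 fold change 0.52, SE 0.28, limma adjusted p = 0.311). Il22ra2, which encodes a soluble decoy receptor of IL-22, was at 640 and 734 in the labelled knockouts under IMQ, against 1014 and 1096 in the controls (-0.62, SE 0.31, adjusted p = 0.283). Neither gene's groups overlapped under IMQ. Untreated Il10rb was at 688 and 721 in the labelled knockouts, against 329 and 581 in the controls, a log2 fold change of 0.69 (SE 0.28, adjusted p = 1.00). This fitted value was no smaller than the one under IMQ, but limma called 0 of 14614 genes for the difference of contrasts. Untreated Il22ra2 overlapped between genotypes (0.08, SE 0.31). The interferon-gamma receptor genes Ifngr2 and Ifngr1 were at -0.40 (SE 0.15) and -0.21 (SE 0.12). Il22 was not analysed here.

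None of the 13 signalling genes was called by limma in either comparison, 6 of them being positive and 7 negative in each. Socs3, a STAT3-induced feedback inhibitor, was at a normalised count of 13783 and 22492 in the labelled knockouts under IMQ, against 7870 and 10254 in the controls (log2 fold change 0.97, SE 0.27, limma adjusted p = 0.120). The labelled knockouts were above both controls, whereas untreated Socs3 overlapped between genotypes (-0.10, SE 0.27). Ptpn2, a phosphatase of JAK and STAT proteins, was at 0.37 (SE 0.11), Stat5a at 0.61 (SE 0.24) and Pias3, an inhibitor of STAT3, at -0.57 (SE 0.17) under IMQ, with adjusted p of 0.127 to 0.200.

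Of 13 inducer cytokines tested, 1 was called higher under IMQ and 0 untreated. By the fitted values 8 were positive and 5 negative under IMQ, and 9 positive and 4 negative untreated. Il1a, an alarm cytokine of keratinocytes, rose to a normalised count of 4134 and 4617 in the labelled knockouts under IMQ, against 1102 and 1306 in the controls (log2 fold change 1.86, SE 0.18, limma adjusted p = 0.0221). Il33, an alarmin of the IL-1 family, was at 6265 and 4700 in the labelled knockouts, against 804 and 1741 in the controls (2.20, SE 0.42, adjusted p = 0.0714), and Tslp, another epithelial alarmin, was at 1.18 (SE 0.27, adjusted p = 0.0875). Il17f, a T cell cytokine, was 1 of the 5 negative genes under IMQ. It was at 24.9 and 21.9 in the labelled knockouts under IMQ, against 52.3 and 61.7 in the controls (-1.25, SE 0.47, adjusted p = 0.190). In untreated epidermis Il17f was at 20.7 and 9.27 in the labelled knockouts, against 4.32 and 3.22 in the controls (1.66, SE 0.47, adjusted p = 0.682). The list's median was 0.16 under IMQ and 0.50 untreated.

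Keratinocyte genes known, mainly from human cells, to respond to these cytokines or to IL-22 were positive under IMQ for 15 of 16 genes tested. Their median log2 fold change was 0.97. Of all 14614 genes tested, 7124 were positive and the median was -0.01. The list was chosen with earlier results of these data known, so this comparison is not independent of them. None of the list was called by limma. Krt6b, a wound keratin gene, was at a normalised count of 30863 and 16160 in the labelled knockouts under IMQ, against 729 and 6770 in the controls (3.33, SE 0.91, limma adjusted p = 0.117). Mmp3, a matrix metalloproteinase gene, was at 3318 and 5864 in the labelled knockouts, against 237 and 1253 in the controls (3.01, SE 0.80, adjusted p = 0.113), and Krt17 was at 0.88 (SE 0.22, adjusted p = 0.102). The exception was Defb14, an antimicrobial beta-defensin gene, at 160 and 210 in the labelled knockouts, against 418 and 929 in the controls (-1.76, SE 0.40, adjusted p = 0.0881, called lower at 0.0216 with sex as a block). In untreated epidermis 10 of 16 were positive, with a median of 0.13.

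**Figure D4:**
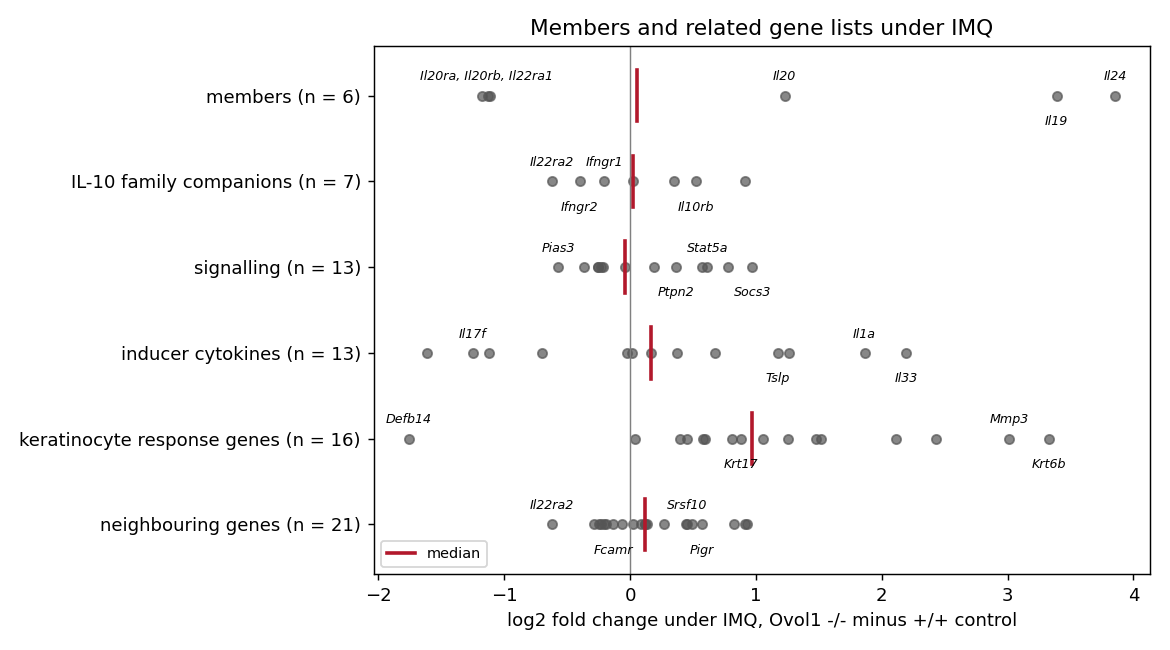
Log2 fold change under IMQ, labelled knockout minus +/+ control, of the 6 genes and of each tested gene of the related lists. Each point is a gene and the red bar is the median of its row. Medians run from -0.04 in the signalling list to 0.97 in the keratinocyte response list.

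The 3 ligand genes lie side by side on the minus strand of chromosome 1 (mm10, GENCODE vM21), with Il24 at chr1:130882074-130887454, Il20 at chr1:130906985-130911451 and Il19 at chr1:130932656-130940115. Il20ra lies on chromosome 10 (19712570 to 19760053, plus strand), Il20rb on chromosome 9 (100457719 to 100486788, minus strand) and Il22ra1 on chromosome 4 (135728172 to 135752140, plus strand). Genes next to them were taken as the nearest 3 protein-coding genes listed on each side, 24 in all, at distances of 1.28 to 873 kb. Of these, 21 were tested and none was called in either comparison. The median log2 fold change of those tested was 0.11 under IMQ, with a range of -0.62 to 0.93. Fcmr, the listed gene nearest to the ligand cluster at 1.28 kb below Il24, had too few reads to be tested. Beside the ligand cluster, Pigr, the immunoglobulin transport receptor gene 29.8 kb below Il24, was at a normalised count of 247 and 353 in the untreated labelled knockouts, against 92.4 and 144 in the untreated controls (1.35, SE 0.31, limma adjusted p = 0.462). Under IMQ it was at 59.6 and 77.0 in the labelled knockouts, against 44.0 and 46.8 in the controls (0.57, SE 0.31, adjusted p = 0.321). Fcamr, which encodes another immunoglobulin receptor beyond Pigr, was at 0.75 (SE 0.31) untreated and -0.13 (SE 0.31) under IMQ. Il10, 79.7 kb above Il19, was at 0.73 untreated and 0.92 under IMQ (adjusted p = 1.00 and 0.441). Srsf10, a splicing factor gene 104 kb from Il22ra1, was at 0.45 (SE 0.13, adjusted p = 0.125) under IMQ.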

How the data were processed

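From their values, the deposited tables hold a normalised signal, whole read counts each scaled by a factor common to the library, with the untreated and the IMQ table scaled separately by the authors. Per the submitters' processing notes, the tools were Trimmomatic 0.35, STAR 2.5.2a, DESeq2 1.24.0 and R 3.6.1 with the mm10 build; the sources used here give no read counter, annotation or gene filter. All values were whole multiples of 1 step per library within 0.001 read, which gave the recovered reads (28600596 to 43080052 per library). Genes with few reads carry a counting error that more depth would lower.

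Limma 3.58.1 in R 4.3.3 was fitted to log2 of the deposited value plus 1, with 4 group means over 8 libraries (4 residual degrees of freedom), trend and robust moderation, for 14614 genes with a mean of at least 10 in either table, and Benjamini-Hochberg adjustment over all of them. Il19 passed that filter through the IMQ table alone. Alternatives were pseudocounts of 0.5 and 5, no filter or a stricter one (50), quantile or TMM scaling, sex as a block, plain moderation, separate fits of the tables, a threshold of 0.10, and tests of the recovered reads with edgeR 4.0.16 (quasi-likelihood) and DESeq2 1.42.0. Libraries were also left out in turn; the single library then left in a group took its spread from the other groups. Each table alone with sex as a block was chosen after seeing the data. Replicate numbers follow the labelled sex. The departures of libraries from their group means correlated between all pairs of groups (0.145 to 0.463 over genes, 0.0744 to 0.394 without X and Y). The block is a pairing by sex alone, since the labels give no other link between libraries of different groups. What else libraries of the same sex share was not tested.

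Genes, lists and the rule for naming genes (at most 4 per list, with the smallest unadjusted p) were chosen with earlier results of these data known. Promoter sequences are from RefSeq (GRCm38.p6), which matched 5 of the 6 by symbol; that of Il24 was not used here. Exon lengths are from GENCODE vM21, and CPM used TMM factors except in RPKM. A planned protein comparison was not run. For likeness the 3 genes with the highest r were taken for each of the 6, of which 1 is not reported here. Of the tests, only the main limma fit was checked on simulated counts, for its untreated and IMQ comparisons. That simulation gave all genes the same relative spread beyond counting error and held no difference by sex. Python 3.11.15, numpy 2.4.6, pandas 2.3.3 and matplotlib 3.10.9 were used.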

Additional observations from a re-analysis of the deposited data

How the results depend on the processing

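Under IMQ, all 6 genes kept their direction under every alternative run, but settings that change only the filter, the threshold, the moderation, the block or the untreated libraries cannot alter a limma fold change, so they add nothing to that count. Limma called 64 genes and 1 of the 6 under IMQ, against 0 and 0 with plain moderation or each table alone, 42 and 0 with each table alone and the block, 358 and 2 with sex as a block (Il20ra and Il22ra1), 292 and 2 in edgeR with the block, 1242 and 4 in DESeq2 (Il19, Il24, Il20ra and Il20rb) and 633 and 2 at an adjusted p under 0.10. Leaving out 1 library gave 0 to 299 genes and 0 to 1 of the 6: 0 genes without any 1 untreated library, 3 without the female and 299 without the male labelled knockout under IMQ, and 5 without the female and 49 without the male IMQ control. In untreated epidermis limma called 0 genes, against 5 with a pseudocount of 5, 8 with each table alone or with sex as a block, 51 with both, 6 in edgeR with the block, 89 in DESeq2 (1 of the 6, Il20), 15 at an adjusted p under 0.10 and 0 to 2 when 1 library was left out. DESeq2 called 99 genes for the difference between the comparisons, where limma called 0. The cause of these changes was not tested. Untreated fold changes that turned their sign when 1 library was left out were those of Il19 (-1.20 to 0.79), Il24 (-0.055 to 2.35), Il20rb (-0.10 to 0.28) and Il22ra1 (-0.48 to 0.77), and Il20 under IMQ against untreated in the labelled knockouts (-0.96 to 0.21). Sex as a block changed the call of Il22ra1 and of no other of the 6. With means of at least 50, Il20 was not tested. Untreated Il19 rests on 1 to 6 reads per library.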
